A study of Canis lupus familiaris with 30 samples.

Results

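Stroma around carcinomas of the canine mammary gland was examined for 92 genes, of 18582 in the count table, whose level was at least 4-fold lower in cancer-associated stroma (CAS) than in matched normal stroma. The genes were chosen on this difference. For each gene, the count in a library was divided by the library's total and scaled to counts-per-million (CPM). A gene was taken when its median over 13 normal stroma libraries was at least 20 CPM and at least 4 times its median over 15 CAS libraries plus 1 CPM. Of the 4574 genes that reached 20 CPM, 97 met both limits, and 5 of them were left out by name in the rule. The difference between CAS and normal stroma is therefore given as a description of the 92 genes, and the measurements that the rule did not use are how the genes varied from dog to dog.

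RNA had been isolated by laser-capture microdissection from archival, formalin-fixed and paraffin embedded tissue of 15 female dogs with spontaneous simple mammary carcinoma (mCA), which had received no treatment according to the labels. Each dog gave 1 library of CAS and 1 of normal stroma, the latter from unaltered regions of the same slides away from the tumour, so that the dogs are the replicates and each CAS library has a normal stroma library of the same animal. The dogs were 4 to 14 years old, 6 of them were labelled neutered, 8 of the tumours were labelled tubular and 7 carried other subtype labels. The samples were 3 to 27 months old at analysis, no dog without a tumour was sampled, and a library holds whatever cells lay in the captured area. CAS libraries held 1361951 to 5572761 counts (median 3434684) and 13 of the normal stroma libraries held 617177 to 3932370 (median 2542342). The normal stroma libraries of dogs 128 and 136 stood apart with 29284 and 32528 counts and were not used to choose the genes. The number of genes called lower in CAS is given with and without them.

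Normal mammary stroma is a mixture of resting fibroblasts, fat cells, blood and lymph vessels, smooth muscle, nerves and scattered immune cells, embedded in a collagen-rich matrix. In carcinomas this tissue is remodelled: fibroblasts become activated, matrix is laid down and reorganised, and cells of the resting connective tissue can be replaced. In RNA from a mixture of cells, a gene can be lower when fewer cells express it or when each cell holds less of its RNA. Because CPM is a share of the library, it can also be lower when other RNA takes up more of the library. These cannot be told apart here. The files give Ensembl identifiers without gene names, and 0 of them could be found in the dog gene table at hand, so lists of marker genes were not applied, the cell types in the captured areas were not checked and the functions of the genes are not stated. Genes other than 2 are called by their rank, rank 1 having the largest ratio of the medians.

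The median level of the 92 genes ranged from 21.2 to 1892 CPM in normal stroma, with 72.5 CPM for the gene in the middle, and from 0 to 120.1 CPM in CAS, with 7.38 CPM in the middle. In normal stroma 38 of the genes had a median over 100 CPM and 36 lay under 50 CPM. In CAS 38 had a median under 5 CPM, and 4 had a median of 0. The ratio of the normal stroma median to the CAS median plus 1 CPM ranged from 4.08 to 35.5 with a median of 6.49. It was over 10 for 29 genes and under 5 for 26. The 3 genes just inside the limit had ratios of 4.08, 4.09 and 4.13, and the 3 just outside had 3.96, 3.95 and 3.87, so there was no gap in the values at the limit. The gene closest inside had medians of 124.6 and 29.6 CPM, and the gene closest outside had 47.0 and 10.9 CPM.

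**Figure D1:**
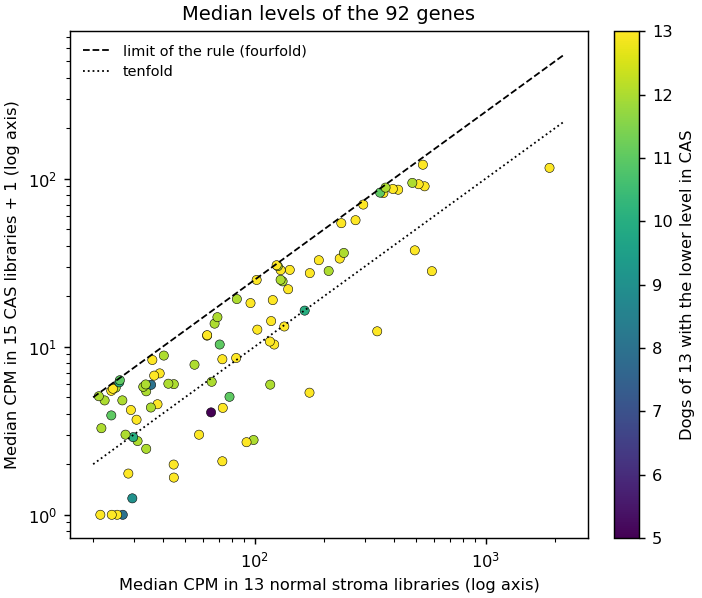
Median level of each of the 92 genes in 13 normal stroma libraries (horizontal, CPM, log axis) and in 15 CAS libraries plus 1 CPM (vertical, log axis), 1 point per gene, coloured by the number of dogs of 13 in which the level was lower in CAS. All points lie under the dashed line that the rule set, 29 lie under the dotted line for a ratio of 10, and the gene with the highest level lies alone at 1892 CPM in normal stroma.

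The gene with the largest ratio, ENSCAFG00000019950, had 1.47 to 343.5 CPM in normal stroma (median 99.0) and 0 to 6.07 CPM in CAS (median 1.79). Levels over 250 CPM were found in the normal stroma of dogs 109, 127, 131 and 134, with 256.4, 273.8, 343.5 and 311.9 CPM, and the CAS of these dogs held 0, 4.46, 0.665 and 4.22 CPM. It was lower in CAS in 12 of 13 dogs. The exception was dog 137, which had the lowest level of all dogs in normal stroma, with 2 counts (1.47 CPM), and the highest in CAS, with 16 counts (6.07 CPM). The ranges of the stromas therefore overlapped through this dog alone. Among the libraries not used by the rule, the normal stroma of dog 136 held 10 counts of the gene, or 307.4 CPM, and that of dog 128 held 0, which at its depth allows up to 102 CPM.

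Ranks 2 to 5 had medians of 72.5, 92.3, 172.9 and 339.6 CPM in normal stroma and of 1.08, 1.70, 4.33 and 11.4 CPM in CAS. Each of these 4 was lower in CAS in 13 of 13 dogs, and for ranks 2 and 5 the lowest normal stroma library was above the highest CAS library, at 12.5 against 9.11 CPM and 40.8 against 39.2 CPM. Ranks 8 and 9 came closest to absence in CAS, with 0 counts in 11 and 10 of the 15 CAS libraries and no more than 5.14 and 2.01 CPM in the others, against medians of 25.4 and 24.1 CPM in normal stroma. The most abundant gene, rank 17, had 622.8 to 4999.7 CPM in normal stroma (median 1892) and 25.6 to 336.5 CPM in CAS (median 115). It alone made up 14.1% of the summed mean level of the 92 genes in normal stroma.

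Levels of 51 genes were lower in CAS in all 13 dogs, and those of 80 genes in at least 12. For 15 genes the 13 normal stroma libraries all lay above the 15 CAS libraries, where 0.0975% of the 18460 genes with at least 1 count in any library did so. The choice of the genes used this contrast, so nothing is read from that share. Few of the genes were absent from CAS. There 59 of the 92 had counts in all 15 libraries and 4 were at 0 in at least 8, while in normal stroma 86 had counts in all 13. The coefficient of variation over dogs was higher in CAS than in normal stroma for 77 genes, with medians over the genes of 0.962 and 0.634. It was taken from the values that chose the genes, and the share over all genes was not counted, so nothing is read from it. The CAS libraries had at least 10 counts for 52 to 87 of the 92 genes and the normal stroma libraries for 77 to 92, so that the lower levels in CAS carry more counting error. A count of 0 allows up to 0.538 to 2.20 CPM in CAS and 0.763 to 4.86 CPM in normal stroma, for counting error only.

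A model with 6 surrogate variables as covariates, the kind the study's methods describe, was fitted to the 30 libraries with edgeR in place of the study's DESeq2. At limits of 0.01 for the FDR and 2 for the fold change, 49 of the 89 genes that passed the filter on low counts were called lower in CAS by the quasi-likelihood test. Of all 10472 genes tested, 1.09% were called lower by this rule. The count was 85 with the dog as a block in place of the surrogate variables, 84 with neither, and 83 with surrogate variables but without the normal stroma libraries of dogs 128 and 136. The calls over all genes rose as well, from 114 of 10472 to 278 with the block and 277 with neither, and to 310 of 10663 without those libraries. DESeq2 with the same 6 surrogate variables on the 30 libraries called 81 of the genes lower. Its calls over all genes are not given here. The median log2 fold change of the 89 genes was −2.14 with surrogate variables and −2.72 with the block, where the medians over all genes were 0.22 and 0.14. ENSCAFG00000019950 had a log2 fold change of −5.54 (SE 0.83, edgeR adjusted p = 4.89e-05) with surrogate variables and −5.56 (SE 0.56) with the block. These tests repeat the contrast that chose the genes and add no support to it.

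Taken as one sum, the 92 genes made up 0.601 to 2.24% of all counts in the 13 normal stroma libraries (mean 1.58% ± 0.458 SD) and 0.105 to 0.628% in the 15 CAS libraries (mean 0.282% ± 0.148 SD). In each dog the share was higher in normal stroma. The groups overlapped only because the normal stroma of dog 135, at 0.601%, was below the CAS of dog 121, at 0.628%. The next lowest normal stroma library was that of dog 126 with 1.11%, and the next highest CAS library was that of dog 137 with 0.552%.

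The shallow normal stroma libraries of dogs 128 and 136 give the same measure in samples the rule did not use. In dog 128, 279 counts fell in the 92 genes, or 0.953% of the library (exact Poisson 95% interval 0.844 to 1.07%), against 0.268% in CAS of the same dog. In dog 136, 490 counts fell in them, or 1.51% (1.38 to 1.65%), against 0.366% in CAS. Both shares were above those of all 15 CAS libraries, and the ratios of normal stroma to CAS were 3.55 and 4.12. At this depth 43 and 20 of the 92 genes were at 0 in these 2 libraries, and 10 and 17 had at least 10 counts. Single genes could therefore not be compared. By CPM alone, 47 genes were lower and 39 higher in the CAS of dog 128, and 66 lower and 24 higher in that of dog 136. The CAS libraries of both dogs had been used by the rule.

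**Figure D2:**
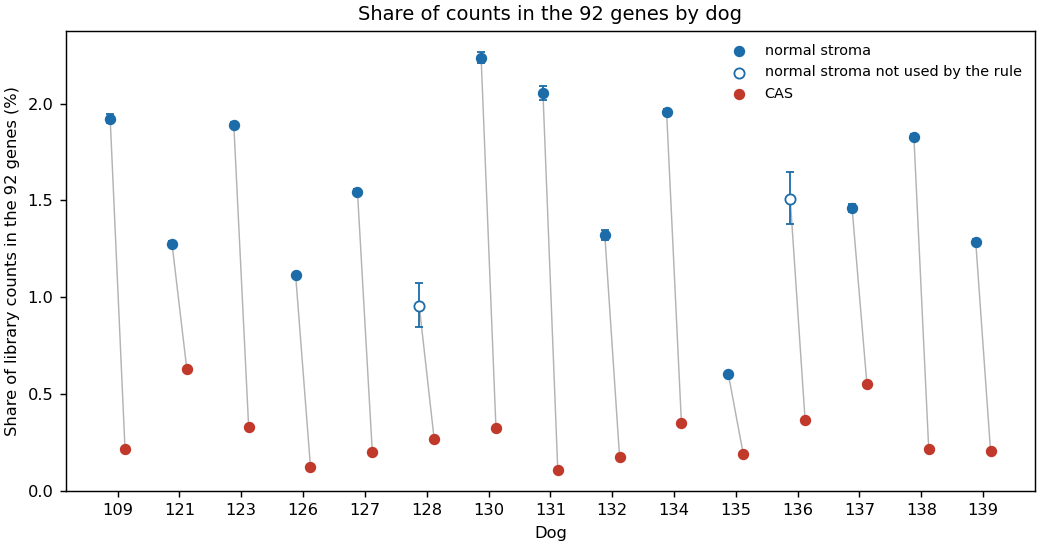
Share of each library's counts that fell in the 92 genes (vertical, %) for each of 15 dogs (horizontal), with a line joining the stromas of a dog and bars for the exact Poisson 95% interval, which covers counting error only. Filled blue points are the 13 normal stroma libraries the rule used, open points the 2 it did not, and red points CAS. Normal stroma is above CAS in every dog, dog 135 has the lowest normal stroma share, and dogs 121 and 137 have the highest CAS shares.

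The size of the difference varied from dog to dog. The ratio of the summed share in normal stroma to that in CAS ranged from 2.03 in dog 121 to 19.6 in dog 131, with a median of 6.93 over 13 dogs. Dogs 121, 137 and 135 had the smallest ratios, at 2.03, 2.65 and 3.18, and the next was dog 134 with 5.62. In these 3 dogs 29, 32 and 38 of the 92 genes were at least 4-fold lower in CAS, against 57 to 78 in the other 10. The 3 dogs reached a small ratio from different sides. In dogs 121 and 137 the normal stroma share was 1.28 and 1.46%, inside the range of the other dogs, and the CAS shares were the 2 highest of 15. In dog 135 the CAS share of 0.189% was inside the range of the other dogs and the normal stroma share was the lowest of 13. Dog 131 had a high share in normal stroma (2.06%) and the lowest in CAS (0.105%), and 85 of the 92 genes were lower in its CAS, with a median log2 difference of −3.94. Over the 13 dogs, 80 to 92 of the genes were lower in CAS, with median log2 differences from −3.94 to −1.40.

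There were 7 genes that were lower in CAS in 10 or fewer dogs, and they were picked out after their values had been seen. Rank 19 was lower in CAS in only 5 of 13 dogs although its medians were 64.8 CPM in normal stroma and 3.07 CPM in CAS. It was either near 0 or well expressed in a library. It had 0 counts in the normal stroma of dogs 121, 123 and 137 and 32.4 to 138.8 CPM in that of the other 10. In CAS it had 0 counts in the same 3 dogs and in dog 136, 0.248 to 3.07 CPM in dogs 109, 126, 127 and 128, and 60.2 to 154.9 CPM in the other 7. The CAS median fell in the lower of these sets, and where CAS had the gene its level was within the range of normal stroma or just above.

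Rank 10 showed a like pattern, with medians of 29.6 CPM in normal stroma and 0.253 CPM in CAS. It was at or under 1 CPM in both stromas of dogs 109, 123, 127, 135 and 139, and it was present in both stromas of dogs 130, 132, 134 and 137, with 96.4, 120.9, 105 and 121.6 CPM in normal stroma and 29.4, 69.1, 103.5 and 76.3 CPM in CAS. In dogs 121, 126, 131 and 138 it had 29.1 to 215.5 CPM in normal stroma and no more than 0.333 CPM in CAS. Rank 29 ranged from 0.282 to 1140 CPM in normal stroma and from 0 to 323.8 CPM in CAS, with the highest normal stroma level in dog 121 and the highest CAS level in dog 137. Rank 53 was lower in CAS in 8 of 13 dogs and was never at 0. It was highest in dog 123 in both stromas, with 210.1 CPM in normal stroma and 218.4 CPM in CAS. For ranks 10 and 19 the ratio of the medians turned on how many dogs had the gene in each stroma.

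Ranks 6, 27 and 85 shared another pattern. All 3 were highest in the normal stroma of dog 123, with 847, 505.2 and 469.6 CPM, and second highest in that of dog 121, with 288.4, 145.8 and 77.5 CPM. All 3 were at 3.43 CPM or less in the normal stroma of dogs 127, 131 and 132. In CAS they did not exceed 8.32, 30.8 and 14.0 CPM, and the CAS of dog 123 held 0, 6.11 and 4.37 CPM. Over the 13 normal stroma libraries the log2 levels of ranks 27 and 85 were correlated with r = 0.93, and rank 6 with them at 0.74 and 0.62, while the same pairs in CAS had r of 0.22, −0.39 and −0.17. Whether reads are shared between near-identical copies of these genes was not tested.

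Co-variation across dogs was described with Pearson's r between each pair of the 89 genes on log2 CPM after TMM normalisation, within each stroma, which gives 3916 pairs over 13 or 15 libraries. The libraries are shared by all pairs, so these correlations are descriptions without a test. In normal stroma the mean r was 0.130, with 13.8% of pairs over 0.5 and 35.7% below 0. It was 0.0187 over pairs of the 4571 filtered genes with a median of at least 20 CPM in normal stroma, and 0.0435 over pairs of all 10472 genes. In CAS the mean r was 0.127, with 10.4% of pairs over 0.5, against 0.00248 and 0.00353 in the same gene sets. The within-dog difference of CAS from normal stroma, over 13 dogs, gave a mean r of 0.123 against 0.0144 and 0.0309. The first principal component held 26.5% of the variance of the 89 genes in normal stroma and 22.8% in CAS, where it held 23.5 and 14.9% of that of all genes.

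These means depended on the scaling and on 1 dog. When counts were divided by the column total in place of TMM normalisation, the mean r of the 89 genes was 0.249 in normal stroma, against 0.175 for genes of at least 20 CPM and 0.116 for all genes. In CAS it was then 0.200, below the 0.289 of the genes of at least 20 CPM and the 0.215 of all genes, so that the order in CAS was reversed. Without dog 135 the mean r in normal stroma was 0.0714 by TMM, against 0.0193 and 0.0435, and 0.145 by column total, against 0.152 and 0.110. The jackknife SE over dogs was 0.063 in normal stroma and 0.0381 in CAS. Mean r with the other genes ranged from −0.170 to 0.315 per gene in normal stroma, with 14 genes below 0 and 6 over 0.3, and from −0.195 to 0.286 in CAS, with 10 below 0.

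**Figure D3:**
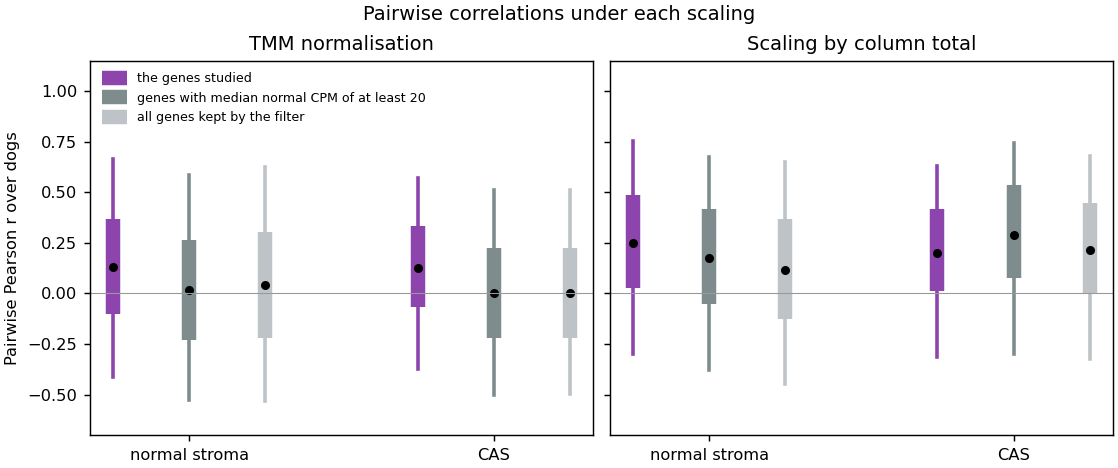
Distribution of pairwise Pearson r over dogs (vertical) in normal stroma and in CAS, after TMM normalisation (left) and after scaling by column total (right), for the 89 genes studied and for 2 wider sets. Thick bars span the 25th to the 75th percentile of pairs, thin lines the 5th to the 95th, and black points the mean. By the mean, the studied genes lie above both wider sets in each stroma after TMM normalisation, and below both in CAS after scaling by column total.

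Library depth moved with the levels of some of these genes. In normal stroma the correlation of a gene's log2 level with the log of the library total had a median of −0.250 over the 89 genes, where it was 0.216 over all genes, and it was below −0.5 for 17 genes and over 0.5 for 7. In CAS the medians were −0.0709 and 0.0412. The part of depth in the co-variation was not tested.

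Dog 135 stood at the low end in normal stroma, in a library that was the deepest of the 13. After TMM normalisation, 30 of the 89 genes had their lowest normal stroma level in dog 135, and the next dogs, 123 and 127, had 10 each. The highest levels in normal stroma were in dog 131 for 17 genes and in dog 134 for 15. In CAS the highest levels were in dog 136 for 25 genes, in dog 137 for 16 and in dog 134 for 9. These counts were taken over the 89 genes only. Whether other genes had their extremes in the same libraries was not tested. On the CPM scale the median of the 92 genes in CAS was 25.6 in dog 137, 21.1 in dog 121 and 13.5 in dog 136, and 4.80 in the lowest library, that of dog 126.

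The gene that followed the others most closely in normal stroma was ENSCAFG00000025201, rank 15, with a mean r of 0.315 there and 0.186 in CAS. It ranged from 2.54 CPM in dog 135 to 644.8 CPM in dog 130 in normal stroma (median 57.5), and from 0.402 CPM in dog 134 to 8.08 CPM in dog 130 in CAS (median 1.996). Levels in normal stroma were over 100 CPM in dogs 109, 123, 130, 131, 134 and 138 and under 20 CPM in dogs 121, 132 and 135. It was lower in CAS in 13 of 13 dogs, yet the ranges overlapped because the 10 counts in the normal stroma of dog 135 lay within the CAS range. Its log2 fold change was −4.13 (SE 0.81, edgeR adjusted p = 0.00112) with surrogate variables and −4.75 with the dog as a block. Both shallow normal stroma libraries held 0 counts of it. ENSCAFG00000019950, in contrast, had a mean r of 0.148 with the other genes in normal stroma and 0.204 in CAS.

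Clustering of the 89 genes by their correlation in normal stroma, with average linkage and a limit of r = 0.5, gave 28 sets. Of the genes, 10 stood alone, and 7 groups of at least 5 genes held 52 of them. The groups were set on these libraries, so their correlation in normal stroma is a description, and the CAS libraries show whether the same genes also varied together there. Mean r within the groups was 0.601 to 0.800 in normal stroma. In CAS it was 0.384 for group 3 (7 genes), 0.352 for group 5 (5 genes) and 0.175 for group 1 (16 genes), and between −0.0316 and 0.0706 for groups 2, 4, 6 and 7. The mean over all pairs in CAS was 0.127. Leaving out each dog in turn, the value in CAS lay between 0.297 and 0.415 for group 3 and between 0.226 (without dog 126) and 0.427 for group 5. The middle of the genes' CAS medians was 29.6 CPM in group 3, 12.2 CPM in group 5 and 3.55 to 9.31 CPM in the others. Over the 30 genes with at least 10 counts in every CAS library, mean r in CAS was 0.243. The part of counting error in the low values of r was not tested.

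**Figure D4:**
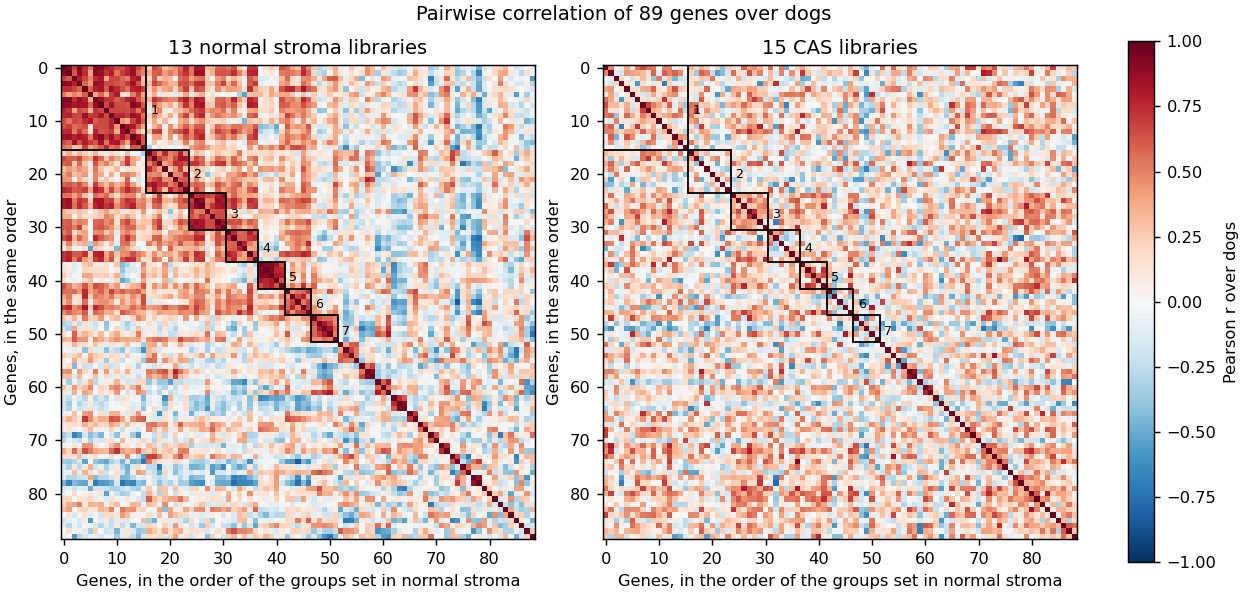
Pearson r over dogs for each pair of the 89 genes (red positive, blue negative) in 13 normal stroma libraries (left) and in 15 CAS libraries (right), with the genes in the same order in both. Black squares mark the 7 groups of at least 5 genes set in normal stroma. Squares 3 and 5 hold mean r of 0.384 and 0.352 in CAS, and the other 5 hold 0.175 or less.

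Across all pairs, those with r over 0.5 in normal stroma (542 pairs) had a mean r of 0.164 in CAS, with 14.0% of them over 0.5 there as well. Pairs with r from 0 to 0.5 in normal stroma (1977 pairs) had a mean of 0.139, and pairs below 0 (1397 pairs) had 0.0968. The mean over all pairs in CAS lay between the first and the last of these, and 13 of the 15 CAS libraries came from the dogs of the normal stroma libraries.

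Group 1, the largest, held 16 genes with median levels of 21.5 to 295.4 CPM in normal stroma. The median over its genes was 8.39 CPM in the normal stroma of dog 135 and 41.9 to 253.6 CPM in that of the other 12 dogs, with the highest values in dogs 131 (253.6), 130 (196.2) and 134 (154.6). In CAS it was 3.06 to 29.4 CPM, highest in dogs 137 and 121. Without dog 135 the mean r within the group in normal stroma was 0.528 in place of 0.663. Dog 135 was also lowest in normal stroma for groups 2, 4, 5 and 6, at 10.7, 14.8, 27.97 and 17.3 CPM. Groups 1 to 4 and 6 ran together in part, with mean r between groups of 0.274 to 0.465 in normal stroma and of 0.0267 to 0.245 in CAS. Groups 3, 4 and 6 were the ones whose levels went most against depth in normal stroma, with median correlations with the log total of −0.52, −0.54 and −0.62.

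Group 3 held 7 genes. Its median was 65.2 CPM in dog 139 to 254.9 CPM in dog 134 in normal stroma, a 3.91-fold range, against 7.62-fold or more in each of the other 6 groups. This order rested on dog 135, since without it group 6 ran from 41.5 to 145.8 CPM, which is narrower. In CAS group 3 ran from 5.81 CPM in dog 139 to 78.6 CPM in dog 137, a 13.5-fold range. By this median dog 139 was the lowest in both stromas, and dogs 134 and 137, the 2 highest in normal stroma, were among the 4 highest in CAS. In dogs 126 and 131 the group median was low in CAS (8.39 and 9.31 CPM) and at 81.1 and 215.5 CPM in normal stroma. The order differed by the sum of the 7 genes. In normal stroma the sum was lowest in dog 135 (636 CPM, against 917.1 CPM in dog 139) and highest in dog 131 (3158 CPM). In CAS it was lowest in dog 131 (146.4 CPM, against 147.4 CPM in dog 139).

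Group 5 had the tightest correlation in normal stroma, with a mean r of 0.800. Leaving out each dog gave 0.761 to 0.822. The group was kept as set on all 13 libraries, so this range is no check of the group. Its 5 genes were ranks 2, 5, 13, 28 and 65, with a median ratio of 20.8. The group median was 501.4, 525.3 and 1006 CPM in the normal stroma of dogs 109, 126 and 127, and 27.97 to 234.6 CPM in that of the other 10, a 36.0-fold range over dogs. In dog 126, whose normal stroma was second highest, CAS was the lowest of 15 at 2.80 CPM, and the 5 genes together had 7579 counts in normal stroma and 33 in CAS. Dog 127 had 11670 and 152 counts. In dog 135 the 5 genes had 1094 counts in normal stroma and 606 in CAS, which is 278.2 and 161.3 CPM. By the group median, the highest CAS levels were in dogs 128 and 134, both at 39.2 CPM, and by the sum of the 5 genes the highest was in dog 136, at 231.6 CPM. Group 5 ran apart from group 4, with a mean r between them of −0.0245 in normal stroma.

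Group 7 held 5 genes, among them ENSCAFG00000019950 (rank 1) and ranks 19, 34, 42 and 78. Its median in normal stroma was 1.47 CPM in dog 137 and 18.0 to 150.6 CPM in the other 12, so that its 102.8-fold range there came from dog 137 alone. In the normal stroma of dog 137, ranks 1, 19 and 34 had 2, 0 and 2 counts, and rank 78 had 22 counts (16.1 CPM). Rank 42 was at its lowest of 13 dogs there, yet still at 127.5 CPM. The library of dog 137 held 1365123 counts, and the sum of all 92 genes in it was not low, at 1.46%. In CAS the mean r within the group was −0.0276, and the middle of its genes' CAS medians was 3.55 CPM. Whether counting error hid co-variation at this level was not tested. The median in the CAS of dog 137 was 6.07 CPM, within the 2.91 to 18.3 CPM of all 15, a 6.28-fold range. By the sum of the 5 genes, dog 137 was higher in normal stroma, with 146.5 CPM against 77.1 CPM in CAS.

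**Figure D5:**
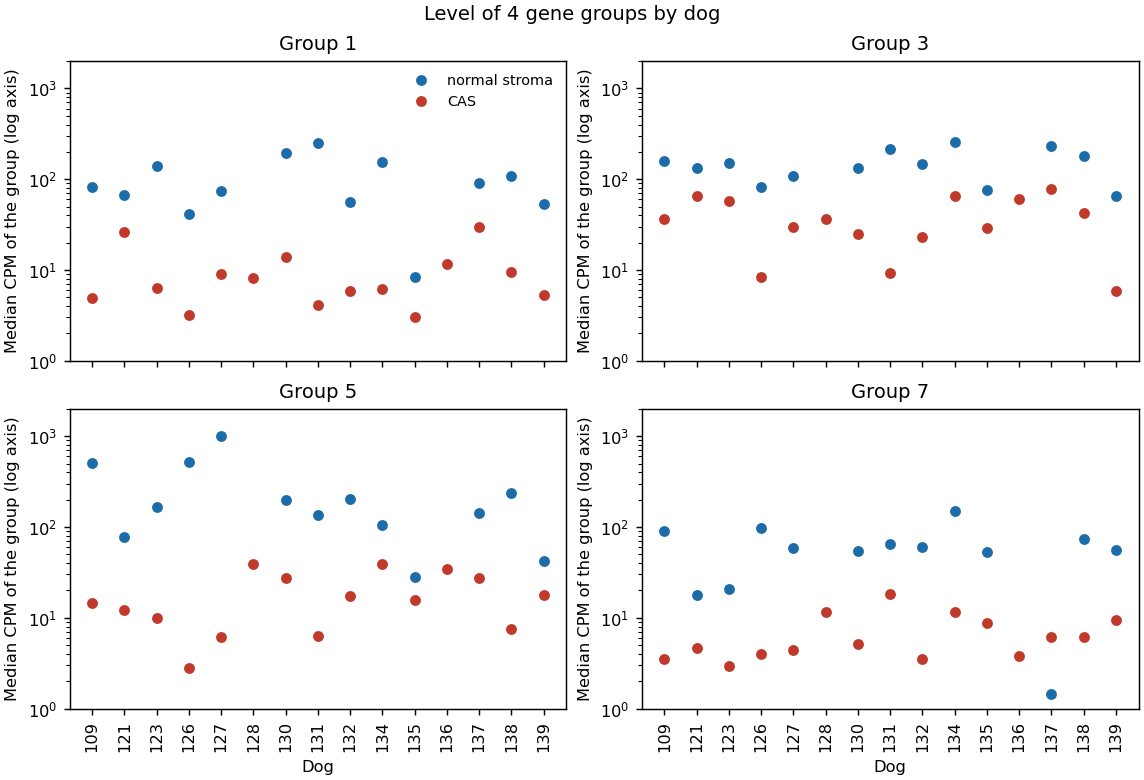
Median level over the genes of groups 1, 3, 5 and 7 (vertical, CPM, log axis) in each dog (horizontal), blue for normal stroma and red for CAS. Dogs 128 and 136 have CAS points only. Group 1 is low in the normal stroma of dog 135, and group 5 is high in that of dogs 109, 126 and 127. Group 3 spans 65.2 to 254.9 CPM in normal stroma. For group 7 the median of dog 137 is lower in normal stroma than in CAS, while the sum of the genes is higher in normal stroma.

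Whether dogs with a high level of a gene in normal stroma also had a high level in CAS was tested over the 13 dogs, by a permutation test of Pearson's r with 100000 resamples, adjusted over all 10472 genes. No gene of the 89 passed an FDR of 0.05, and 0% of all genes did. With these resamples p cannot fall below about 1e-05, which is too coarse for 1 gene alone to pass after this adjustment. At an unadjusted p below 0.05 there were 10 of the 89 genes (11.2%), against 10.7% of all genes. The test took r of either sign, and ranks 13 and 14, among the 10, had r of −0.58 and −0.55. Of the 89 genes, 57 had r above 0. With Spearman's rho the adjusted test also called 0 of the 89. The median r was 0.138 over the 89 genes, 0.124 over all genes and 0.159 over genes of at least 20 CPM. For rank 19, the gene that was near 0 or well expressed, r was 0.70 (permutation p = 0.00539, adjusted p = 0.269) and rho 0.57 (permutation p = 0.0453, adjusted p = 0.556), and r was 0.51 without the 2 dogs farthest from the median in normal stroma. For ENSCAFG00000019950 r was −0.25 (permutation p = 0.42, adjusted p = 0.816) and rho −0.07 (permutation p = 0.834), with r = −0.06 without the 2 farthest dogs. For ENSCAFG00000025201 r was 0.30 (permutation p = 0.313, adjusted p = 0.765) and rho 0.27 (permutation p = 0.363), and r was −0.17 without the 2 farthest dogs, so what relation there was rested on those dogs.

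The labels of the dogs were then compared within each stroma, which the rule did not use. Neuter label, tumour subtype (tubular against all others), age of the dog and age of the sample were each tested in both stromas with edgeR's quasi-likelihood test at an FDR of 0.05, over all genes, in 8 tests. All 92 genes were tested in normal stroma, and 76 to 86 of them passed the filter on low counts and were tested in CAS. In each test 0 of them was called, and DESeq2 also called 0 in each. Of all genes tested, 0.489% were called for the neuter label in normal stroma, 0.00862% for age of the dog in normal stroma and 0% in each of the other 6 tests.

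For the neuter label in normal stroma (5 dogs labelled neutered against 8 others), 13 of the 92 genes had an unadjusted edgeR p below 0.05, which is 14.1% of them against 8.16% of all genes. The log2 difference was above 0, that is higher in dogs labelled neutered, for 66 of the 92, with a median of 0.38 against −0.06 over all genes. The smallest adjusted p was 0.273, for rank 6, with a log2 difference of −4.43 (SE 1.30). The 92 genes made up 1.32 to 2.24% of counts in dogs labelled neutered and 0.601 to 1.96% in the others. Totals did not overlap between these sets of libraries, with 617177 to 1365123 counts in dogs labelled neutered and 2503672 to 3932370 in the others, so that depth and label cannot be told apart. In CAS (6 against 9 dogs), 64 of the 81 genes tested were above 0, with a median log2 difference of 0.45 against −0.00114 over all genes. Of the 81 genes, 3 (3.70%, against 4.79% of all genes) had an unadjusted edgeR p below 0.05. The share of all genes above 0 was not counted in either stroma.

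Unadjusted p-values below 0.05 for subtype were found for 4 of the 92 genes in normal stroma (4.35% against 2.97% of all genes) and for 7 of 76 in CAS (9.21% against 3.28%). For age of the dog they were found for 3 of 92 in normal stroma (3.26% against 2.30%) and for 8 of 85 in CAS (9.41% against 2.02%). For age of the sample there were 5 of 92 in normal stroma (5.43% against 2.85%) and 8 of 86 in CAS (9.30% against 8.77%). The smallest adjusted p over these 6 edgeR tests was 0.260, for age of the sample in CAS. With 13 and 15 dogs, these tests do not show that the levels were alike between the labels.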

How the data were processed

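The authors quantified single reads with kallisto 0.44.0 on the CanFam3.1 transcripts of Ensembl and deposited estimated counts, summed to genes and not normalised. This step splits reads among near copies of a gene, so levels and co-variation of close copies are uncertain. The table held whole numbers, all of its columns were used, and libraries were assigned to stroma and dog from the labels.

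The genes and lists were chosen with earlier results of these data known. With edgeR 4.0.16 in R 4.3.3, filterByExpr kept 10472 genes and 89 of the 92, libraries were scaled by TMM, and quasi-likelihood tests with Benjamini-Hochberg adjustment were run over all genes. For CAS against normal stroma, 6 surrogate variables came from sva 3.50.0. Fits within normal stroma used 13 libraries and left out dogs 128 and 136. Log2 CPM for correlations had a prior count of 2. Same-numbered libraries came from the same animal. The correlation of their deviations from the group means was 0.129 on average, over 0.1 in 8 of 15 dogs, against −0.00773 between dogs. This included the shallow normal stroma libraries of dogs 128 and 136, and no value without them was computed. Named were the genes with the largest ratio and the highest mean r in normal stroma, and others by rank. Alternatives were DESeq2 1.42.0, its size factors, no filter, other correlations and prior counts, a dog block and leaving out dogs. Figures and correlations were made in Python 3.11.15. Scripts were tested on simulated data. Intervals and floors cover counting error only.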

Additional observations from a re-analysis of the deposited data

Results flagged for a closer look

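Among 12 sets of libraries of 4 to 10 dogs with a common label, 1 held a library far from the rest. In the 9 dogs not labelled neutered, the 92 genes made up 0.628% of counts in the CAS of dog 121, and the next highest value was 0.348%. The gap was 0.553 of the whole range, above the limit of 0.493 for 9 values. Chance gives about 1 such set in 20.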

How the results depend on the processing

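The rule gave 92 genes, and 91 to 107 when the scaling, the libraries, the average or the offset was changed. By TMM CPM there were 107, with 88 of the 92 among them, and by mean CPM 106, with 66 of the 92 among them. Leaving out each dog gave 86 to 102. The genes called lower in CAS numbered 49 in the edgeR model with surrogate variables and 81 with DESeq2 and the same surrogate variables. In edgeR they numbered 84 without surrogate variables and 85 with the replicate block (the dog) in their place. Chosen after seeing the data, leaving out the normal stroma libraries of dogs 128 and 136 gave 83, and 85 with the replicate block. Leaving out each dog gave 40 to 69, the highest without dog 128, and the causes of these changes were not tested. Mean pairwise r in normal stroma was 0.130, and 0.249 by column total and 0.212 over the 64 genes whose count never fell under 10. In CAS it was 0.127, and 0.200 by column total and 0.243 over 30 such genes. Without each dog it was 0.0714 to 0.145 in normal stroma and 0.105 to 0.140 in CAS. The tests of dog labels called 0 of the genes in all 136 alternatives, and the lowest and highest counts without each dog were 0. The comparison of CAS with normal stroma levels of the same dog also called 0 in its 3 alternatives. Leaving out each dog was not run for it, because no r passed the threshold. No paired analysis was possible within a stroma because each dog gave 1 library of it. Depth limits the genes with few counts: 52 to 87 of the 92 reached 10 counts in the CAS libraries. Near-identical genes and cell types could not be checked.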
